A study of Mus musculus with 2 samples.

Results

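The collagen genes are described here in RM-1 tumours grown in mice and given the PKMYT1 inhibitor RP-6306 or vehicle. Every gene whose symbol is Col, 1 or 2 digits, a, and 1 or 2 digits was taken, which gave 44 of the 32285 genes measured: 11 fibrillar collagens, 9 collagens of basement membranes and 24 others. RM-1, a mouse prostate cancer line transformed with ras and myc, had been injected under the skin of C57BL/6 mice. Both groups carried the genotype label WT, and treatment with vehicle or with RP-6306, which blocks a kinase that restrains CDK1 before mitosis, had reached day 10 at collection. CD45+ leukocytes were sorted from the dissociated tumours and mixed with tumour cells at 3 to 1 before droplet 3' single-cell RNA sequencing. There was 1 library per group, the design text does not say how many mice each library held, and differences between the libraries therefore have no replicate check and no test.

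Collagens are trimers of alpha chains wound into a triple helix. Fibrillar collagens such as types I, III and V form the fibres of connective tissue, type IV collagens form the sheet of basement membranes, and the others include beaded filament collagens, collagens that decorate fibrils and collagens that span the cell membrane. Most chains assemble only in fixed partnerships: type I is usually built from Col1a1 and Col1a2, type V from Col5a1 with Col5a2 and at times Col5a3, and type IV from pairs encoded head to head on a chromosome. In solid tumours fibroblasts are known as the main source of fibrillar collagen, while epithelial and endothelial cells are known to make basement membrane chains.

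After filtering, 16082 vehicle cells held 127383351 unique molecular identifiers (UMIs, counted molecules) and 14916 RP-6306 cells held 147676986. Of the barcodes, 328 of the kept ones occurred in both libraries. The tumour-like class (clusters 3, 5 and 8 of 23) held 3183 vehicle and 3394 RP-6306 cells with medians of 26309 and 31254.5 UMIs. It had UMIs of 15 of 17 tumour markers in both libraries, with the luminal keratin Krt8 at 456 CPM in the vehicle library and Krt5 and Krt6a at 0. Collagen genes were left out of the genes used for clustering. Levels are CPM, UMIs of a gene per 1000000 UMIs summed over a class. A 3' library gives about 1 tag per transcript whatever its length, so levels were not divided by gene length. All intervals are 95% and cover counting error only.

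Tumour-like cells made collagens of all 3 families, at 1212 CPM in the vehicle and 1105 CPM in the RP-6306 library. In the median cell collagens were 0.116% of UMIs in the vehicle and 0.106% in the RP-6306 library. The fibrillar sum was 512 and 490 CPM, the basement membrane sum 493 and 443 CPM and the sum of the others 208 and 171 CPM. Tumour-like cells held 86.3% of all vehicle collagen UMIs and 88.8% of all RP-6306 ones. They also held 86842323 of the 127383351 UMIs of all genes in the vehicle and 111795341 of the 147676986 in the RP-6306 library. The sort and the mixing set how many tumour cells were sampled, so these shares describe the libraries and not the tumours.

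Among the fibrillar chains, 4 made up most of the tumour-like sum. Col5a3, a minor chain of type V collagen, was at 212 CPM in the vehicle and 206 CPM in the RP-6306 library and was the highest of all 44 genes. Col3a1, the only chain of type III collagen, was at 181 and 166 CPM. Col5a1, the chain common to type V trimers, was at 70.7 and 66.8 CPM, and Col1a1, the major chain of type I collagen, at 38.8 and 39.1 CPM. Col24a1, a fibrillar collagen known from bone and cornea, followed at 6.48 and 9.83 CPM. Col5a3 and Col3a1 had a UMI in 90.2% and 89.6% of vehicle tumour-like cells and in 90.6% and 85.4% of RP-6306 ones, while Col1a1 had one in 34.4% and 36.6%. With each cell thinned to 2000 UMIs the share for Col3a1 was 30.8% and 28.2%, against 3.58% and 1.89% of T-like cells. T-like cells are not known to make Col3a1 and had medians of 2930 and 2509 UMIs. Thinning, here and below, left out cells under 2000 UMIs. These were 735 of 4342 vehicle and 1327 of 5399 RP-6306 T-like cells, and 8 and 21 tumour-like cells. For Col1a1 the thinned shares were 8.06% and 8.30% in tumour-like cells and 0.665% and 0.417% in T-like cells. Col1a1 was also less evenly spread than Col3a1: the 66 tumour-like cells with the most Col1a1 (1% of the class) held 11.9% of its UMIs, against 5.19% for Col3a1.

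**Figure D1:**
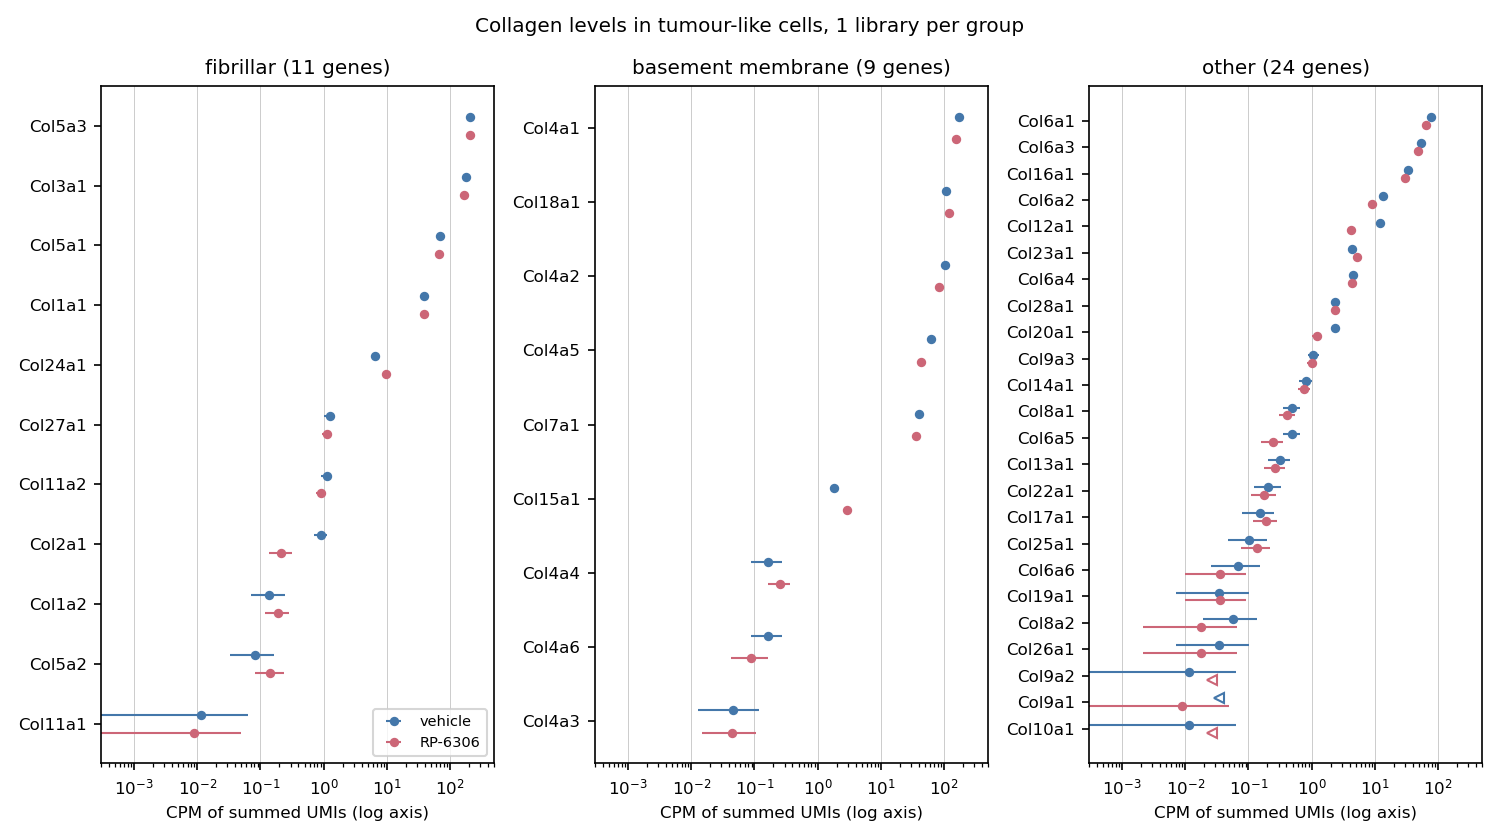
Level of each of the 44 collagen genes in tumour-like cells by library, as CPM of summed UMIs on a log axis, by family, with exact 95% Poisson intervals that are mostly smaller than the points; open triangles mark genes with 0 UMIs, drawn at the level of 3 UMIs. Col5a3, Col3a1 and Col4a1 lie above 150 CPM in both libraries while Col1a2, Col5a2 and Col4a6 lie below 0.2 CPM.

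The chains that usually partner these collagens were almost absent from tumour-like cells. Col1a2, the second chain of type I collagen, had 12 UMIs in the vehicle and 21 in the RP-6306 library (0.138 and 0.188 CPM) beside 3372 and 4367 UMIs of Col1a1. That is 0.00356 Col1a2 UMIs per Col1a1 UMI (0.00184 to 0.00622) in the vehicle and 0.00481 (0.00297 to 0.00736) in the RP-6306 library. Col5a2, the second chain of the usual type V trimer, had 7 and 16 UMIs beside 6141 and 7464 of Col5a1. Col5a3 instead stood at 2.99 UMIs per Col5a1 UMI (2.91 to 3.08) in the vehicle and 3.09 (3.01 to 3.17) in the RP-6306 library. The low count of the partner was seen in each of clusters 3, 5 and 8, where Col1a2 per Col1a1 ranged from 0.00281 to 0.00571 over both libraries. The Col1a2 UMIs lay in 12 vehicle and 20 RP-6306 tumour-like cells. RP-6306 T-like cells had 5 Col1a2 and 6 Col5a2 UMIs (0.359 and 0.430 CPM) and vehicle ones 0 and 2, so in the RP-6306 library neither tumour-like level was above that of T-like cells.

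Some neighbouring collagen genes stood far apart in level. Col3a1 (chromosome 1, 45311538 to 45349706, plus strand, GRCm38) and Col5a2 (45374321 to 45503282, minus strand) lie tail to tail with 24614 bases and no protein-coding gene between them, and were at 172 and 0.116 CPM over both libraries. Col4a5 (chromosome X, 141475385 to 141689234, plus strand) and Col4a6 (141165403 to 141474076, minus strand) lie head to head with start sites 1309 bases apart and were at 51.8 and 0.121 CPM. Col4a1 and Col4a2, which also lie head to head and overlap by 22 bases on chromosome 8, were at 165 and 92.8 CPM. Whether the gene counts used strand was not stated in the labels, so UMIs of overlapping genes on opposite strands cannot be told apart.

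Upstream sequences are shown for members with high and with almost no level in the tumour-like cells: Col3a1 and Col5a3 against Col1a2, and Col4a5 against its divergent neighbour Col4a6. They come from the RefSeq promoter table for GRCm38.p6, which has an entry for 35 of the 44 genes, not including Col1a1 or Col5a2. Each line gives bases before the RefSeq start site, 5′ to 3′ on the gene's strand, without bases that GENCODE vM21 places in an exon. Capitals mark the CCAAT box, the GC box GGGCGG or the TATA box, searched as TATAAA, on either strand. These occur in 33.8%, 32.7% and 12.4% of the 250 bases upstream of 32851 RefSeq starts. The stretches are Col3a1 chr1:45311288-45311537 (plus), Col5a3 chr9:20815068-20815317 (minus), Col1a2 chr6:4505370-4505492 (plus), Col4a5 chrX:141475169-141475384 (plus) and Col4a6 chrX:141474077-141474326 (minus).
Col3a1: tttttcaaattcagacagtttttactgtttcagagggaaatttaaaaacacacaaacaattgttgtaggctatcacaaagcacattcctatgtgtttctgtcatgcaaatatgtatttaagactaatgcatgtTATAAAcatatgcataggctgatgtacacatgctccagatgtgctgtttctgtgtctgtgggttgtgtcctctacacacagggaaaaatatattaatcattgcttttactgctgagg
Col5a3: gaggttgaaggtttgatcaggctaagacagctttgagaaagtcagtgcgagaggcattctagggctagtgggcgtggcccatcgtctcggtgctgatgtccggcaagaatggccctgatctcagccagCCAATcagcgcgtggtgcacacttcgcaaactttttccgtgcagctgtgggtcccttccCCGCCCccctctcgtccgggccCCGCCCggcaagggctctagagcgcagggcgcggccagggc
Col1a2: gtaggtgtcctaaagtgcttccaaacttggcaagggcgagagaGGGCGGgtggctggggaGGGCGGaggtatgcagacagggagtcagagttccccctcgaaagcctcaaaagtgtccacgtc
Col4a5: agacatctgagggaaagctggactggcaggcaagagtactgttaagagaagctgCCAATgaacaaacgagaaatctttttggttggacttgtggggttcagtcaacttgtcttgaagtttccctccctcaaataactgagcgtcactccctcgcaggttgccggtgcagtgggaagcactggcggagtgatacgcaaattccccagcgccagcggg
Col4a6: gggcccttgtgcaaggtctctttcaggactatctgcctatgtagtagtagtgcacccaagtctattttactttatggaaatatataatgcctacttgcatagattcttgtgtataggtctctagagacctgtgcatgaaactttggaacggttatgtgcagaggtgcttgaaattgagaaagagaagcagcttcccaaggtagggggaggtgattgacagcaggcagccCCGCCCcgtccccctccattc
The Col3a1 stretch has 35.2% G or C, no CpG dinucleotide and 1 TATA box. The Col5a3 stretch has 62.8% G or C, 17 CpG dinucleotides, 1 CCAAT box and 2 GC boxes, beside a median of 6 CpG dinucleotides over all 250-base windows. The printed Col1a2 stretch has 2 GC boxes, the Col4a5 stretch 1 CCAAT box and the Col4a6 stretch 1 GC box. The Col1a2 stretch covers only 248 to 126 bases before its RefSeq start. It lies inside the gene as placed by GENCODE, which starts at 4504814, so it is not matched to the Col3a1 and Col5a3 stretches. With exon bases kept, the 250 bases of Col1a2 also hold 1 CCAAT box and those of Col4a5 1 GC box. A match describes letters only.

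Basement membrane chains were the second family. Col4a1, one chain of the ubiquitous type IV trimer, was at 175 CPM in the vehicle and 157 CPM in the RP-6306 library, and its partner Col4a2 at 105 and 83.6 CPM. Col18a1, the precursor of endostatin, was at 108 and 119 CPM. Col4a5, whose loss causes Alport kidney disease, was at 61.6 and 44.1 CPM, and Col7a1, the anchoring fibril collagen of skin, at 40.6 and 35.7 CPM. In contrast to the type I chains, Col4a1 and Col4a2 were found together: 0.597 Col4a2 UMIs per Col4a1 UMI (0.581 to 0.613) in the vehicle and 0.531 (0.518 to 0.545) in the RP-6306 library. Col15a1, a basement membrane zone collagen related to Col18a1, was at 1.84 and 2.88 CPM. The kidney and lung chains Col4a3 and Col4a4 had 9 and 42 UMIs over both libraries, and Col4a6 had 24.

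Of the other collagens, the type VI chains led. Type VI forms beaded filaments from Col6a1, Col6a2 and a further chain, most often Col6a3. Col6a1 was at 77.6 and 63.7 CPM, Col6a3 at 53.4 and 47.8 CPM and Col6a2 at 13.3 and 9.14 CPM, so that Col6a2 stood at 0.172 and 0.143 UMIs per Col6a1 UMI. Col16a1, a fibril-associated collagen, was at 33.8 and 29.8 CPM. Col12a1, which coats type I fibrils, was at 11.999 and 4.28 CPM. The membrane collagen Col23a1, the type VI chain Col6a4 and Col28a1 lay between 2.33 and 5.19 CPM. The remaining genes were each under 2 CPM over both libraries. Among them the fibrillar Col27a1 had 233 UMIs and Col11a2 200, and of the others Col20a1 had 341, Col9a3 207, Col14a1 155, Col8a1 88, Col6a5 69, Col13a1 56, Col22a1 38, Col17a1 34 and Col25a1 24. Of the 44 genes 9 had fewer than 20 UMIs in the class: Col6a6, Col4a3, Col19a1, Col8a2, Col26a1, Col11a1, Col9a1, Col9a2 and Col10a1. Of the cartilage collagens Col2a1 had 102 UMIs, and Col9a1, Col9a2 and Col10a1 had 1 UMI each.

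Between the libraries most collagens of tumour-like cells differed little. The fibrillar sum had a log2 ratio, RP-6306 over vehicle, of -0.06 (-0.08 to -0.04), the basement membrane sum -0.15 (-0.17 to -0.13) and the sum of the others -0.28 (-0.31 to -0.25). Of the 35 members with at least 20 UMIs over both libraries, 11 were higher and 24 lower in the RP-6306 library, with a median of -0.07 against 0.01 over all 17454 genes measured. Of those 17454 genes 9128 were higher and 8326 lower. On the log2 scale of CPM + 1, 0 of 35 collagens were past 1.5-fold higher (background 0.934%) and 3 were past 1.5-fold lower (background 1.6%). The fibrillar, basement membrane and other members had medians of -0.06, -0.12 and -0.06. Without the barcodes found in both libraries the 3 sums were at -0.06, -0.15 and -0.28. Fibroblast markers in tumour-like cells summed to 205 CPM (16 of 18 with a UMI, Mfap4 and Mfap5 at 0) in the vehicle and 206 CPM (18 of 18) in the RP-6306 library. Endothelial markers, of a cell type that makes basement membrane, summed to 108 CPM (10 of 11, Cldn5 at 0) and 72.3 CPM (11 of 11). Whether these UMIs were RNA of endothelial cells or of the tumour-like cells themselves was not tested. Their part in the basement membrane difference was not tested either.

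The 3 lower genes were Col12a1, Col20a1 and Col2a1. Col12a1 had 1042 UMIs in the vehicle and 478 in the RP-6306 library (11.999 and 4.28 CPM), a log2 ratio of -1.30 with the pseudocount and of -1.49 (-1.65 to -1.33) without it. It was lower in each tumour cluster, from 15.3 to 6.82 CPM in cluster 3, from 5.24 to 1.88 CPM in cluster 5 and from 15.5 to 6.22 CPM in cluster 8. Its UMIs were found in 592 of the vehicle cells (18.6%, 17.3 to 19.99) and 302 of the RP-6306 cells (8.90%, 7.96 to 9.91), or in 3.37% and 1.30% of cells thinned to 2000 UMIs, against 0.222% and 0.0982% of T-like cells. UMIs per cell with a UMI, which cannot be below 1, were 1.76 and 1.58.

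The other 2 were low in both libraries. Col2a1, the collagen of cartilage, had 78 and 24 UMIs (0.898 and 0.215 CPM), which is -0.64 with the pseudocount and -2.06 (-2.79 to -1.39) without it. Col20a1, a little studied fibril-associated collagen, had 206 and 135 UMIs (2.37 and 1.21 CPM), which is -0.61 and -0.97 (-1.30 to -0.65). With a pseudocount of 10 CPM only Col12a1 was past 1.5-fold lower.

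The next lower genes were chains of types IV and VI. Col6a2 was at -0.50, Col4a5 at -0.47 and Col4a2 at -0.32, and without the pseudocount their intervals were -0.67 to -0.42, -0.54 to -0.43 and -0.37 to -0.28. Col4a5 was lower in clusters 3, 5 and 8 as well (-0.31, -0.29 and -0.42). Col4a1 was at -0.15, so the 2 chains of 1 trimer differed by unlike amounts.

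On the higher side stood Col24a1 (log2 0.53, 563 and 1099 UMIs), Col15a1 (0.45), Col23a1 (0.22) and Col18a1 (0.14). Col1a1 (0.0084, 38.8 and 39.1 CPM) and Col28a1 (0.0076, 2.33 and 2.34 CPM) came next and were nearly equal in both libraries. Counting intervals lay above 0 for 4 of the 11 higher members and below 0 for 15 of the 24 lower ones. Col24a1 was at 7.69 and 13.3 CPM in cluster 3, 5.0 and 7.39 CPM in cluster 5 and 5.73 and 9.12 CPM in cluster 8, and past 1.5-fold within clusters 3 and 8. Without the pseudocount its interval over all tumour-like cells was 0.45 to 0.75 and that of Col15a1 0.37 to 0.93. A listed transcript, D530037P16Rik, overlaps Col24a1 on the same strand, and reads could be shared between them.

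**Figure D2:**
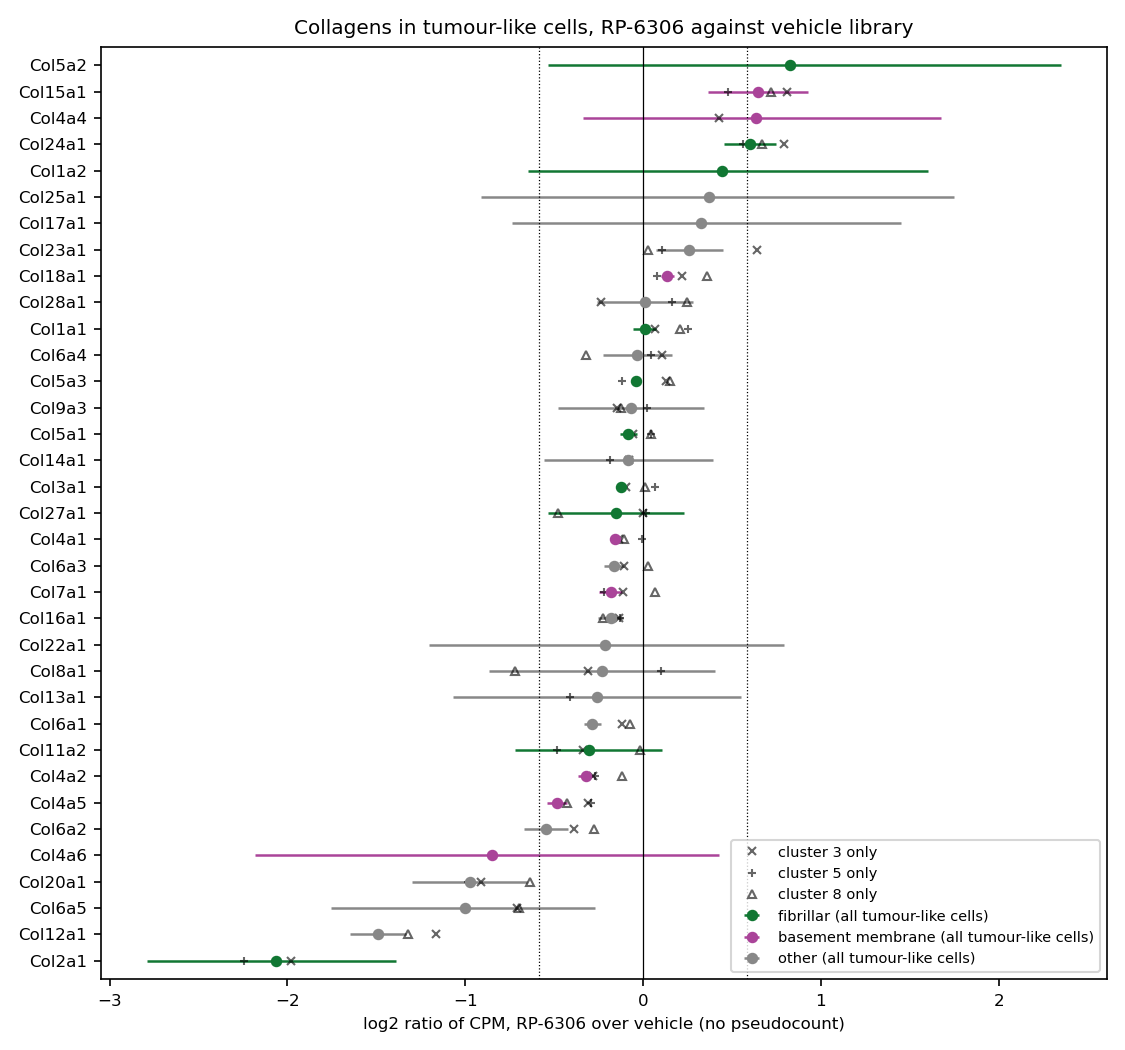
Log2 ratio of CPM in tumour-like cells, RP-6306 over vehicle, without a pseudocount, for the 35 collagens with at least 20 UMIs; filled points and bars are all tumour-like cells with exact 95% intervals, black symbols are clusters 3, 5 and 8 alone where a gene had 20 UMIs, and dotted lines mark 1.5-fold. Col12a1 lies left of the dotted line in every symbol, Col24a1 lies right of 0 in every symbol, and most abundant chains lie close to 0.

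Single tumour clusters were then compared one at a time. In cluster 3, Col24a1 was past 1.5-fold higher (1 of 28 measured, background 1.18%) and Col12a1, Col2a1 and Col20a1 lower (3 of 28, background 1.41%). In cluster 5 none of 27 was higher (background 0.708%) and 2 were lower, Col12a1 and Col2a1 (background 2.07%). In cluster 8 Col24a1 was higher (1 of 25, background 1.7%) and Col12a1 lower (1 of 25, background 3.43%), and Col2a1 had too few UMIs to be measured. The mix of tumour clusters differed between the libraries. Within each cluster the ratios of the basement membrane and other sums were closer to 0 than over all tumour-like cells, and that of the fibrillar sum was at or above 0. Cluster 5, led by the mitotic and S phase genes Ube2c, Top2a and Hist1h1b, held 866 vehicle and 1426 RP-6306 cells and had the lowest collagen sum (947 and 902 CPM, against 1372 and 1322 CPM in cluster 3 and 1256 and 1265 CPM in cluster 8). Within clusters 3, 5 and 8 the fibrillar sum was at 0.03, 0.0021 and 0.10 in place of -0.06. The basement membrane sum was at -0.10, -0.08 and -0.02 in place of -0.15, and the sum of the others at -0.17, -0.23 and -0.16 in place of -0.28. Col5a3 was higher in the RP-6306 library in clusters 3 and 8 (0.13 and 0.15) and lower in cluster 5 (-0.12).

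Collagen-high cells were 7 cells, all in the RP-6306 library. They were found by UMIs of at least 10 of 18 fibroblast markers that are not collagens, such as Dcn, Postn, Pdgfra and Thy1, a threshold chosen after the data were seen. The vehicle library had 0 such cells of 16082 (exact Clopper-Pearson 0 to 0.0229%). The RP-6306 library had 7 of 14916 (0.0469%, exact Clopper-Pearson 0.0189 to 0.0967). With 1 library per group the shares were not compared between the groups, and the sort and the 3 to 1 mix set how many cells without CD45 were sampled. Just below the threshold, 0 cells had 9 markers and 5 had 8, and those 5 were tumour-like cells with 0.185% to 0.403% of their UMIs from collagens. In the 7 cells collagens were 2.51% to 8.96% of UMIs (median 3.96%). The cells did not form a cluster of their own: 6 lay in tumour cluster 3 and 1 in the unnamed cluster 13. They had 0 UMIs of Krt18 and at most 1 of Krt8 or Ptprc (CD45) per cell. Of 17 tumour markers 4 had a UMI, with 21 UMIs (114 CPM), 16 of them of 1 marker in 1 cell. Mural markers had 142 UMIs (774 CPM), 82 of them in 1 other cell, beside 2211 UMIs of the fibroblast markers. The cells are called fibroblast-like here. At 7 cells of 1 library the class is below the 50 cells set for a comparison, and its values are a description.

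Fibroblast-like cells held another set of collagen chains than tumour-like cells. Their fibrillar sum was 35305 CPM (34450 to 36175), their basement membrane sum 1875 CPM and the sum of the others 6902 CPM. Col3a1 led at 9753 CPM, followed by Col1a1 at 8886, Col1a2 at 7747 and Col5a2 at 5179 CPM. The missing partners of the tumour-like cells were thus here: Col1a2 stood at 0.872 UMIs per Col1a1 UMI (0.811 to 0.937) and Col5a2 at 2.75 per Col5a1 UMI (2.43 to 3.11), while Col5a3 was at 0.919 per Col5a1 UMI. Each of the 7 cells had at least 85 Col1a2 UMIs, 59 Col5a2 UMIs, 92 Col1a1 UMIs and 78 Col3a1 UMIs. They held 1421 of the 1476 Col1a2 UMIs of both libraries (96.3%) and 950 of the 995 Col5a2 UMIs (95.5%), and outside them no cell had more than 2 Col1a2 UMIs or 3 Col5a2 UMIs.

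Fibril-associated and filament collagens came next in these cells. Col12a1 was at 2279 CPM, Col6a3 at 2017, Col5a1 at 1886, Col5a3 at 1734, Col6a1 at 812, Col6a2 at 572 and Col8a1, a short-chain collagen of vessel walls and wounds, at 562 CPM. Col12a1 was uneven, since 1 cell held 245 of its 418 UMIs and the lowest cell had 1. The 7 cells held 50.2% of all Col8a1 UMIs, 19.7% of Col12a1, 18.2% of Col14a1 and 16.3% of Col1a1 UMIs. Col7a1 (1 UMI, 5.45 CPM, 0.138 to 30.4) stood below the 37.8 CPM of tumour-like cells. Col18a1 (17 UMIs, 92.7 CPM, 54.0 to 148) and Col4a5 (9 UMIs, 49.1 CPM, 22.4 to 93.1) had intervals that held the tumour-like 114 and 51.8 CPM. Of the 44 genes 26 had a UMI in the 7 cells.

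The basement membrane chains of the class rested on 1 cell. Col4a1 was at 932 and Col4a2 at 403 CPM, but 143 of the 171 Col4a1 UMIs and 56 of the 74 Col4a2 UMIs lay in a single cell, and 3 of the 7 cells had no Col4a1 UMI. That cell also held 109 of the 112 endothelial marker UMIs of the class (10 of 11 markers) and 16 of its 17 Col18a1 UMIs. It held 16 of the 21 tumour marker UMIs, all of 1 listed marker, and had 0 UMIs of Krt8 and Krt18. It also held 25 of the 142 mural marker UMIs, of which another cell had 82. With the cell highest in basement membrane chains left out, the basement membrane sum was 666 CPM. Whether it is 1 cell or a droplet of more than 1 was not tested.

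**Figure D3:**
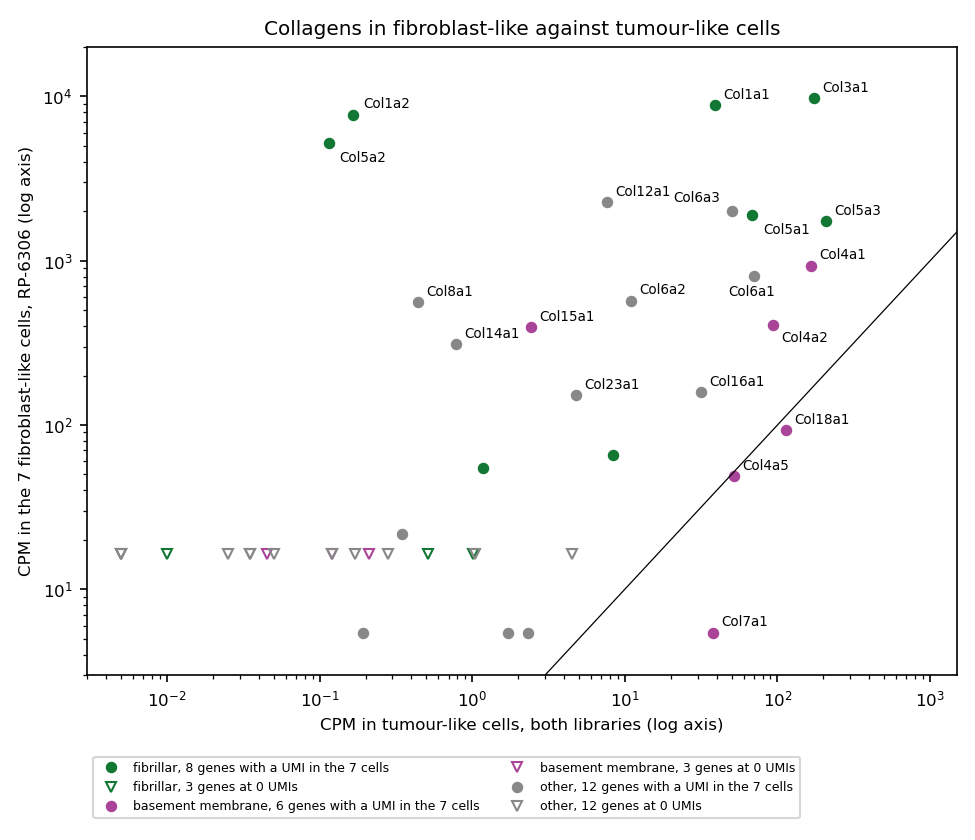
Level of each collagen in the 7 fibroblast-like cells (vertical, CPM, log axis) against tumour-like cells of both libraries (horizontal, CPM, log axis), with the line of equal levels; triangles are genes with 0 UMIs in the 7 cells, drawn at the level of 3 UMIs, and the lowest points are single UMIs. Col1a2 and Col5a2 lie at the upper left, at 7747 and 5179 CPM against 0.166 and 0.116 CPM, and Col7a1 lies below the line.

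**Figure D4:**
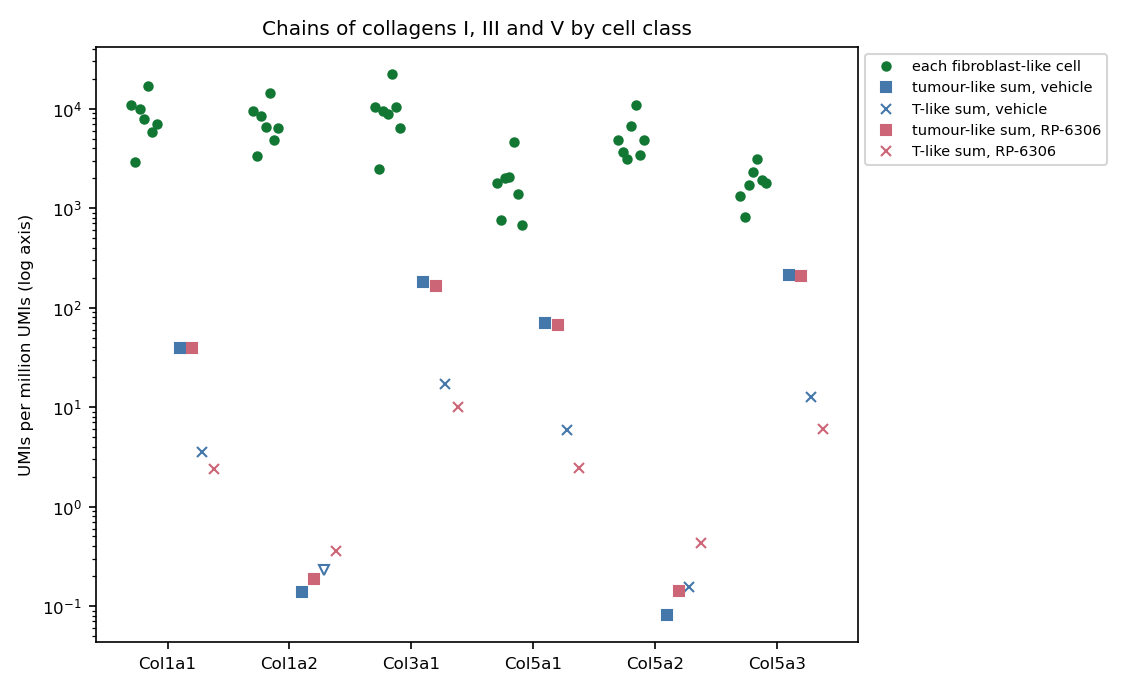
Level in CPM of 6 chains of collagens I, III and V on a log axis, in each of the 7 fibroblast-like cells (circles), in summed tumour-like cells (squares) and in summed T-like cells (crosses; the open triangle is 0 UMIs, drawn at the level of 3 UMIs), by library. All 7 cells lie at 3144 CPM or above for Col1a2 and Col5a2, while tumour-like sums lie below 0.2 CPM.

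Values for whole libraries turned on these 7 cells. Col1a2 was at 0.126 CPM over all vehicle cells and 9.89 CPM over all RP-6306 cells, or 0.264 CPM without the 7 cells. Col5a2 was at 0.0864 and 6.66 CPM, or 0.231 CPM without them, and Col1a1 at 30.1 and 42.0 CPM, or 31.0 CPM without them. The fibrillar sum of all cells was 403 CPM in the vehicle and 436 CPM in the RP-6306 library (log2 0.12), and 393 CPM (-0.03) without the 7 cells. A share of 0.0469% of cells thus set the direction of the fibrillar difference between the whole libraries.

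In leukocytes collagen levels were a small part of those in tumour-like cells. For the 12 collagens highest in tumour-like cells, the median level in T-like cells was 7.93% of the tumour-like level in the vehicle and 4.19% in the RP-6306 library. It was 11.7% and 5.75% in B-like cells and 4.89% and 2.01% in macrophage and monocyte-like cells. Over the 12 genes it ranged from 5.996% to 10.7% in vehicle and 2.85% to 6.06% in RP-6306 T-like cells, from 7.30% to 16.0% and 3.82% to 11.8% in B-like cells, and from 3.16% to 8.17% and 0.517% to 4.75% in macrophage and monocyte-like cells. In NK-like cells it ranged from 5.31% to 15.6% in the vehicle and from 0% to 9.73% in the RP-6306 library. How much of these UMIs is RNA from tumour cells was not tested. Every sum of collagens was lower in the RP-6306 leukocytes, with 109 and 57.2 CPM in T-like and 142 and 72.9 CPM in B-like cells.

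A few collagens were at a higher level in a leukocyte class than in tumour-like cells. Col11a2, a fibrillar chain of cartilage encoded in the major histocompatibility region, was at 4.02 CPM in vehicle and 3.94 CPM in RP-6306 T-like cells (52 UMIs in 50 cells and 55 in 53), against 1.13 and 0.912 CPM in tumour-like cells. At 2000 UMIs per cell 0.859% and 0.712% of T-like cells had a Col11a2 UMI. Col14a1, a fibril-associated collagen, was at 5.83 and 10.9 CPM in macrophage and monocyte-like cells (19 UMIs in 10 cells and 54 in 28), against 0.806 and 0.760 CPM in tumour-like cells. Col27a1 had 21 UMIs in 20 vehicle B-like cells (2.64 CPM, against 1.24 CPM in tumour-like cells), but 9 UMIs in RP-6306 B-like cells (1.26 CPM, against 1.12 CPM). Col19a1 had 15 UMIs in 7 vehicle NK-like cells, 5 of them in 1 cell, and 1 UMI in RP-6306 NK-like cells.

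Clusters left unnamed also carried collagen. Cluster 13 (304 and 164 cells), led by Neat1, Sdk1 and Cdh13 with 3.20% and 3.79% mitochondrial UMIs, had the highest collagen sum of the 23 clusters in both libraries, 2722 and 2127 CPM. Of 23 collagens measured there 1 was past 1.5-fold higher (background 11.1%) and 4 lower (background 8.36%), with a median of -0.35 against 0.07 over all genes. All 3 families were lower there in the RP-6306 library (-0.34, -0.37 and -0.34). Within clusters 3, 5 and 8 the fibrillar sum was not lower. Col12a1 was at 26.4 and 9.23 CPM and Col24a1 at 21.0 and 40.8 CPM in cluster 13, lower and higher as in clusters 3, 5 and 8. Adding clusters 13 and 22 to the tumour-like class moved the basement membrane sum from -0.15 to -0.22 and the fibrillar sum from -0.06 to -0.11. Cluster 6 (1729 and 258 cells, medians of 611 and 826.5 UMIs) had 936 and 664 CPM, and cluster 19, led by Hist1h2ak, C1qb and Mrc1, 1239 CPM in 3 vehicle cells and 924 CPM in 88 RP-6306 cells.

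Of 20 listed genes that fold and modify procollagen, 19 were measured, 7 were higher and 12 lower, with a median of -0.08 and none past 1.5-fold. Over all 17454 genes measured in tumour-like cells 9128 were higher and 8326 lower, with a median of 0.01. Of these, 163 were past 1.5-fold higher and 280 past 1.5-fold lower, so few genes of a short list would be. The lists below share this background. P4hb, the shared subunit of prolyl hydroxylase, was at 494 and 490 CPM, Serpinh1, the collagen chaperone HSP47, at 446 and 403 CPM, Ppib at 362 and 386 CPM and Plod2, a lysyl hydroxylase, at 196 and 172 CPM. The catalytic subunits P4ha1 and P4ha2 were at 267 and 186 and at 77.1 and 53.4 CPM (both -0.52, and lower in clusters 3, 5 and 8). Fkbp14 was at 11.1 and 7.496 CPM (-0.50), Creb3l1, a transcription factor of procollagen secretion, at 1.31 and 0.671 CPM (-0.47), and Crtap at 44.8 and 53.4 CPM (0.25).

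Of 20 genes of procollagen processing and crosslinking 16 were measured, 5 higher and 11 lower (median -0.14). Sparc, a collagen-binding matrix protein, was at 873 and 596 CPM, Fn1, fibronectin, at 489 and 335 CPM, and Loxl2, a lysyl oxidase that crosslinks collagen, at 232 and 163 CPM. Their log2 ratios were -0.55, -0.54 and -0.51, and Tgm2 was at -0.51 and Pcolce2 at -0.48. Pcolce, an enhancer of procollagen cleavage, was at 257 and 244 CPM. Lox, the founding lysyl oxidase, had 6 and 9 UMIs in tumour-like cells but 292 in the 7 fibroblast-like cells (1592 CPM). Bgn, a small proteoglycan bound to fibrils, had 44 and 79 against 419 UMIs.

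Basement membrane partners differed in both directions. Of 20 listed 17 were measured, 7 higher and 10 lower (median -0.05). Nid1, nidogen, which links laminin to type IV collagen, was at 507 and 550 CPM, Lamb1 at 179 and 179 CPM, Lamc1 at 130 and 111 CPM and Hspg2, perlecan, at 55.6 and 47.7 CPM. Fbln1 was at 7.04 and 10.8 CPM (0.55) and Lamb2 at 8.89 and 6.23 CPM (-0.45), with Lama5 at -0.24. Lama4, a laminin chain of mesenchymal and endothelial cells, had 4 and 23 UMIs in tumour-like cells and 99 in the 7 fibroblast-like cells.

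Of 13 listed collagen receptors 11 were measured, 4 higher and 7 lower (median -0.11). Ddr2, a kinase activated by fibrillar collagen, was at 216 and 191 CPM, and Ddr1 at 34.9 and 26.9 CPM (-0.37). Cd44 was at 799 and 591 CPM (-0.44) and Mrc2, an uptake receptor for collagen fragments, at 34.6 and 33.1 CPM. The integrin alpha chains Itga1 and Itga2 were at 15.3 and 11.1 CPM (-0.42) and at 14.3 and 12.7 CPM (-0.17). Itgb1, the beta chain with which both pair, had only 67 UMIs in vehicle and 87 in RP-6306 tumour-like cells (0.772 and 0.778 CPM, in 58 cells of each library). It was at 987 CPM in the fibroblast-like cells, 359.5 and 364 CPM in macrophage and monocyte-like cells, 798 and 753 CPM in NK-like cells, 88.9 and 54.8 CPM in T-like cells and 48.8 and 41.0 CPM in B-like cells. Tumour-like cells thus had the lowest Itgb1 level of these 6 classes in both libraries.

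**Figure D5:**
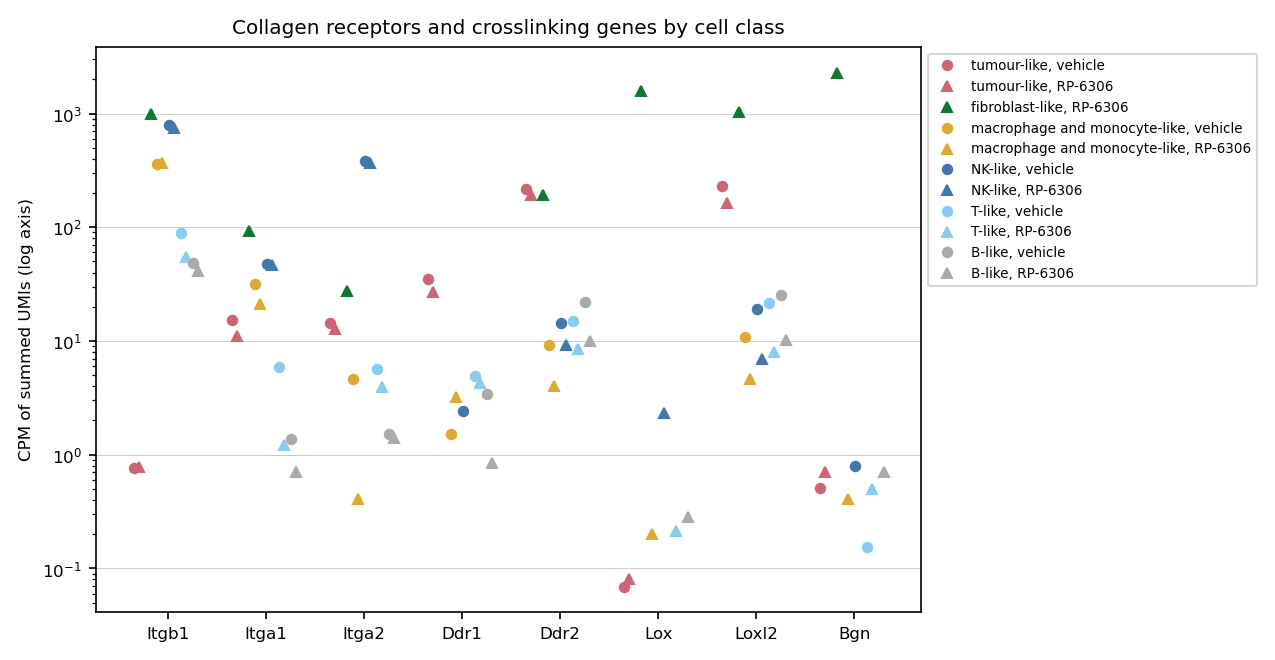
CPM of summed UMIs on a log axis for collagen receptors (Itgb1, Itga1, Itga2, Ddr1, Ddr2) and matrix genes (Lox, Loxl2, Bgn) in 6 cell classes, with circles for the vehicle and triangles for the RP-6306 library; classes with 0 UMIs are not drawn. Itgb1 lies below 1 CPM in tumour-like cells and above 40 CPM in the other classes, while Ddr2 and Loxl2 are high in tumour-like and fibroblast-like cells.

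Across the 23 clusters, both libraries together, the genes most like the fibrillar sum were Lamb1 (Pearson r = 0.991), Aebp1, Kif21a, Parva, Cald1, Ghr, Kitl, Rbfox2, Arhgap42 and Igf2bp2 (down to 0.982). Those most like Col4a1 plus Col4a2 were Parva (0.986), Kitl, Ptprn, Pcdh7, Cpe, Lamb1, Prune2, Igf2bp2, Cald1 and Arhgap42 (down to 0.973). Parva, Kitl, Lamb1, Igf2bp2, Cald1 and Arhgap42 were in both lists. Collagen sums were far higher in tumour clusters than in leukocyte clusters, for example 1372 CPM in cluster 3 and 128 CPM in the B-like cluster 0 (vehicle). A gene that is higher in tumour-like cells can reach a high r from this split alone. The lists therefore do not show which genes vary with collagens among tumour-like cells. The clusters share both libraries and differ in depth, and the values describe these clusters only.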

How the data were processed

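The deposited files hold counts of UMIs per gene and barcode, not normalized, from SeekOne DD 3' libraries. The submitters' processing notes name Cell Ranger 2.1.1 and mm10 and give neither a role. The matrices held 17313 vehicle barcodes with 135415063 UMIs and 15909 RP-6306 barcodes with 158073632 UMIs, and the rule by which the authors kept barcodes was not stated. The rest was computed with Python 3.11.15, scipy 1.17.1, scanpy 1.11.5 and igraph 0.11.9. Cells needed 500 UMIs, 300 genes and at most 15% mitochondrial UMIs. Scrublet's own threshold marked only 3 and 0 doublets, so 6% of cells with the highest scores were dropped from each library. Cells were clustered on 2000 variable genes without collagens (30 principal components, 15 neighbours, Leiden resolution 1). A cluster was named where its second marker score was at most 0.8 of its first and it had 20 cells in each library, a ratio set after the data were seen. Clusters 10 and 21 were also left unnamed because their leading genes held more markers of another class. Further rules for few markers or low UMIs left no cluster unnamed. Unnamed clusters made up 25.4% and 12.9% of cells. For CPM, UMIs were added up over each class in each library. Log2 ratios used CPM + 1 for genes with at least 20 UMIs. Their exact conditional binomial 95% intervals leave the pseudocount out, so the log2 value of a low gene can lie outside its interval. With 1 library per group a fold of 1.5 stands in for a test. The ratio step was run on simulated Poisson counts drawn from the tumour-like sums. The intervals assume the same counting error, so that run cannot check variation between cells, animals or libraries. Gene positions are from GENCODE vM21. Members and gene lists were chosen with earlier results of these data known. Named genes are the 12 highest members per class, the 6 highest and 6 lowest ratios among members with 50 UMIs, up to 5 genes by ratio in either direction and 5 by level per list, and the 10 nearest genes across clusters with 100 UMIs. Lox, Bgn, Lama4, Itgb1 and members with few UMIs were named after their values were seen. A gene that this rule takes from a list other than the collagens is not reported here.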

Additional observations from a re-analysis of the deposited data

How the results depend on the processing

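In tumour-like cells the fibrillar log2 ratio (-0.06) was -0.0025 as a mean over cells, -0.019 with cells thinned to 2000 UMIs, 0.030, 0.0021 and 0.10 within clusters 3, 5 and 8, and -0.11 with clusters 13 and 22 added. The basement membrane ratio (-0.15) was -0.11, -0.10, -0.10, -0.079, -0.023 and -0.22 under these settings in the same order, and that of the other collagens (-0.28) was -0.22, -0.21, -0.17, -0.23 and -0.16 under the first 5. The number of collagens past 1.5-fold higher (0) was 1 as a mean over cells, 2 when thinned (Col15a1 and Col9a3), 1 in cluster 3 and 1 in cluster 8. The number lower (3) was 1 with a pseudocount of 10 CPM and 1 in cluster 8, 2 in cluster 5, 2 at Leiden resolution 2 and 4 with no doublets removed (Col4a6 added). Col20a1 was no longer past it in the first 4 of these nor when thinned, where Col6a2 took its place, while Col12a1 was past it in all 18 settings, the reported one included. In the 7 fibroblast-like cells the fibrillar sum (35305 CPM) was 36714 CPM when thinned, 34276 CPM without the cell highest in it and 22044 CPM with a rule of 8 markers. The basement membrane sum (1875 CPM) was 666 and 1424 CPM under the last 2 of these, and the sum of the others (6902 CPM) 6286, 5576 and 4377 CPM. The cause of these shifts was not tested. With at least 1000 UMIs per cell, no doublets removed, Leiden resolution 0.5 or 2, collagens among the variable genes, other size factors, at least 100 UMIs per gene, or barcodes found in both libraries left out, these family ratios moved by less than their counting intervals. The cluster, shared barcode, added cluster and 8 marker settings were chosen after seeing the data. No paired analysis was possible because each group has 1 library. Depth limits the comparison most for the 9 collagens under 20 UMIs.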
